A study of Homo sapiens with 4 samples.

Results

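The sites described here are the N6-methyladenosine (m6A) positions of HEK293T messenger RNA that lost at least 40 percentage points of methylation in cells given ascorbic acid. They number 850 of 78509 sites that could be compared, or 1.08%. A site could be compared when each of the 4 libraries listed it with 20 or more reads of A or G, and it became a member when its mean level in the 2 control libraries exceeded its mean level in the 2 ascorbic acid libraries by 40 points or more. Members were thus chosen by their measured levels, and their loss is given as a description with no test. No compared site rose by as much.

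HEK293T is a human embryonic kidney line, here of wild-type genotype in both groups. The first group was given ascorbic acid for 36 h, starting 24 h after seeding, with the medium changed every 6 h, and the other group was the control. Each group has 2 libraries, and the labels do not say whether these came from separate cultures, so p-values cover the spread between these libraries, which may be technical. The sources used here give no dose. Libraries were made by GLORI, a chemical method that deaminates unmethylated adenosine to inosine, which sequencing reads as G. m6A is protected from this and keeps being read as A, so the level of a site is the percent of its A plus G reads that carry A.

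m6A is written on nascent messenger RNA by the METTL3 and METTL14 methyltransferase complex, mostly within a short motif with the core letters GGAC or AGAC and GAAC, the methylated A being the third letter. FTO and ALKBH5, the demethylases of the mark, belong to the dioxygenases that need iron and 2-oxoglutarate, and ascorbic acid keeps the iron of such enzymes reduced. Reader proteins of the YTH family bind the mark and steer splicing, export, translation and decay of the transcript, and the mark is densest in long internal exons and near stop codons.

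The libraries listed 135205 and 143518 sites with ascorbic acid and 132989 and 144171 in control, with 25146378 and 26816350 A plus G reads at listed sites with ascorbic acid and 22592887 and 28562744 in control. The median depth at a member was 89 and 103 reads in the ascorbic acid libraries and 83 and 82.5 reads in the control libraries. The share of unmethylated A left unconverted, as the authors estimated it per gene, had a median over members of 2.88% and 3.06% with ascorbic acid and of 2.92% and 4.40% in control, so control replicate 2 stood above the other 3 libraries. The part of this share in the levels was not tested. After correcting each level for it 959 sites met the limit, among them all 850 members. The correction takes more from a low level than from a high one, so it tends to widen a loss, and these counts cannot show what the share did. Of 7 genes chosen to mark the HEK293T line, 5 had a site listed in all 4 libraries, against 0 of 7 markers of blood, liver, connective and epithelial cells. One of these, the epithelial keratin KRT18, had an unscaled gene coverage of 169.6 and 197.7 with ascorbic acid and 148.5 and 134.9 in control, so the transcript was present. The other 6 did not have a gene coverage value in all 4 libraries. Neither did PAX2 and LHX1, the HEK293T genes with no such site, so the lists differ less than the counts of sites show.

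RefSeq sequence was at hand around gene starts, and further sequence only at microRNA hairpins. The 8 members with sequence all lay in gene-start windows (build GRCh38.p14), 4 of them in that of a gene on the opposite strand. They are printed because they show the letters at which methylation was lost. Each line runs 5′ to 3′ on the strand of the site, and the capitals mark the methylated A with the pair of bases on either side.
ZSWIM8, upstream site, chr10:73801590-73801618, plus strand: tgaaacttggctGGACAgatcatcctcac
ZSWIM8, downstream site, chr10:73801625-73801649, plus strand: ccctggtagcacAGACTgacagctg
LHFPL6, chr13:39601241-39601269, minus strand: cctgcagtccctGAACActtacttggggt
WDR83OS, chr19:12669767-12669795, minus strand: gccatgctcccaGGACTccttccttgcag
PRKCE, chr2:45651521-45651549, plus strand: atccctccggatAGACTgaacatccctcc
site in no named gene, near MDH1, chr2:63588757-63588785, plus strand: gctcatcctcagGGACTactttgcaatcg
SLMAP, upstream site, chr3:57757045-57757073, plus strand: caggggcgatgcAGACTgtcccgccggcc
SLMAP, downstream site, chr3:57757166-57757194, plus strand: ttcggcccaaaaGGACTttcctggccgcg

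Every one of these 8 sites had A at the listed position followed by C. Counted on the transcript strand at the site alone, the 4 letters ending in that C read GGAC at 4 members, AGAC at 3 and GAAC at 1. Of all 2472 compared sites that lay in gene-start windows or microRNA hairpins, 18.1% read GGAC, 3.72% AGAC and 4.94% GAAC. Of the 453 sites there that were at 50% or more in control and were not members, 40.2% read GGAC, 7.73% AGAC and 11.5% GAAC. A followed by C, as at all 8 members, was found at 51.6% of the 2472 sites and at 79.2% of the 453. With 8 members these shares are a description of the printed sites.

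The levels at the printed sites were close between replicates of a group at most of them. The upstream ZSWIM8 site had levels of 23.4% and 29.2% with ascorbic acid, against 65.5% and 70.7% in control, and the downstream ZSWIM8 site 13.2% and 19.7% with ascorbic acid, against 58.3% and 62.3% in control. ZSWIM8 is the substrate receptor of a ubiquitin ligase that acts in microRNA decay, and these 2 members lie 35 nt apart near the annotated end of the gene. At the LHFPL6 site the level was 38.9% and 34.3% with ascorbic acid, against 81.5% and 88.0% in control. At the PRKCE site, in the transcript of protein kinase C epsilon, it was 35% and 37.0% with ascorbic acid, against 80% and 87.8% in control. The groups were apart at each of these sites, and the widest replicate gap among the 8 was at the site near MDH1, with 35% and 39.5% with ascorbic acid, against 66.7% and 90.6% in control on as few as 20 reads.

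For contrast, 3 deeply read sites in the same windows, at 80% or more in control and changing by under 5 points, had these sequences. They were chosen after their values were seen and not from all such sites, so they need not be the deepest.
ZIC2, chr13:99981772-99981800, plus strand: ccgcctggctttGGACTcttctcctcctc
site in no named gene, near MRPL49, chr11:65122174-65122202, minus strand: ccgcgcggtcgcTCAGCagtgacgtgaca
GEMIN7, chr19:45090570-45090598, plus strand: ttcccgagccagGAACTctgggccccatg

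ZIC2, a zinc finger transcription factor of the developing brain, kept a level of 76.1% and 76.4% with ascorbic acid, against 80.6% and 80.2% in control, at a site with the same 5 capital letters as the downstream SLMAP member. That SLMAP member, in the transcript of a membrane-anchored protein of the STRIPAK phosphatase complex, had 39.8% and 45.5% with ascorbic acid, against 89.1% and 93.3% in control. GEMIN7, a part of the SMN complex that assembles splicing particles, had 90.3% and 89.9% with ascorbic acid, against 94.0% and 94.2% in control. Sites with the same core letters therefore stood on both sides of the limit. At the site near MRPL49 the A was followed by G, with levels of 81.0% and 82.5% with ascorbic acid, against 79.9% and 83.2% in control.

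Across the 850 members the median level was 33.3% and 33.6% in the ascorbic acid libraries and 81.3% and 82.5% in the control libraries. The median change was -45.4 points and the largest loss 67.9 points. A loss of at least 50 points was found at 209 members and of at least 60 points at 23. The median member kept 42.0% of its control level with ascorbic acid, against 88.2% for the 30874 other sites at 50% or more in control. At 816 members the level with ascorbic acid was under 50%, and at 108 it was under 20%.

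The 2 libraries of a group differed at members by a median of 3.90 points with ascorbic acid and 3.72 points in control. The 2 groups did not overlap at any of the 850 members, as the choice makes likely, and both ascorbic acid levels were under both control levels at 55.4% of all compared sites. The smallest gap between the groups at a member was 18.2 points. On the A and G reads, edgeR's quasi-likelihood test with Benjamini-Hochberg adjustment called 850 of 850 members lower, where 25.7% of all compared sites were called lower and 0.219% higher; since the rule used this contrast, the count is given with no reading.

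**Figure D1:**
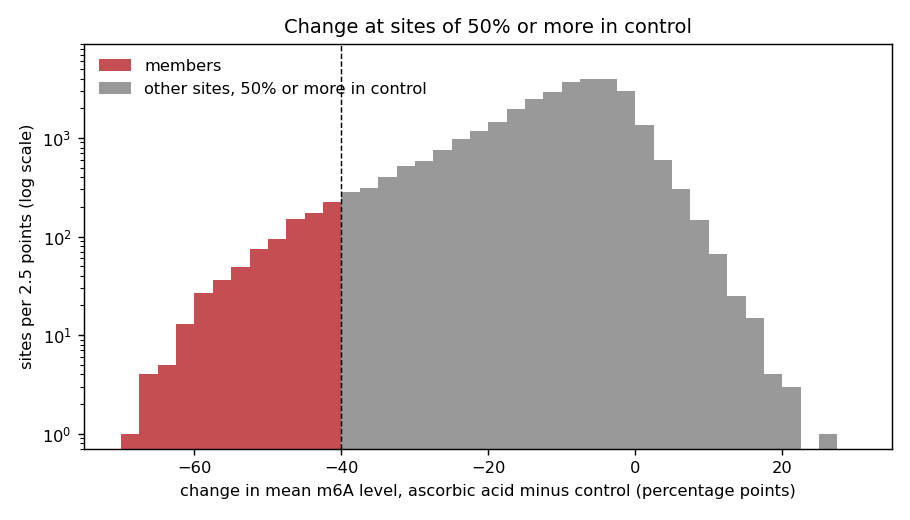
Number of sites on a log scale by the change in mean m6A level, ascorbic acid minus control, in percentage points, for sites of 50% or more in control. The 850 members (red) lie left of the dashed limit of -40 points, and the bins right of it, each 2.5 points wide, hold 282 and 309 other sites.

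The limit cuts a continuous range, and 597 compared sites of any control level lost between 35 and 40 points. Just inside it were sites of BRPF3, a scaffold of histone acetyltransferase complexes, with 44.9% and 36.2% with ascorbic acid, against 76.7% and 84.4% in control, and of MAPK8IP3, a scaffold of JNK signalling, and KDM5A, a histone H3 lysine demethylase, both with a change of -40.02 points. Just outside it were sites of RNF166 and ZNF692, both at -39.97 points, and of SPPL2B at -39.96 points. Members could not come from the lowest levels, because the lists hold no site under a level of 10%: a site that lost methylation to below that in an ascorbic acid library was not compared.

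The rule was also applied to 1 library of each group at a time, among the same compared sites, which still had to be listed in all 4 libraries at a level of 10% or more. With 1 ascorbic acid and 1 control library, between 942 and 1064 sites met the limit, with a median loss of 45.4 to 45.5 points in the choosing pair. In the other pair of libraries their median loss was 41.1 to 43.0 points, and 54.1% to 61.1% of them again lost at least 40 points. In that pair 49 to 90 of them lost under 20 points, and the lowest losses, of -19.9 to -12.1 points, were rises.

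The deepest members show the size of the loss with the least counting error. STUB1 encodes a ubiquitin ligase that works with heat shock chaperones, and its site at chromosome 16 position 682615 was read 7951 and 8742 times with ascorbic acid and 7507 and 10034 times in control. Its level was 43.4% and 42.9% with ascorbic acid, against 87.0% and 87.4% in control. A site of STUB1 7 nt away, read at like depth, had 54.3% and 54.5% with ascorbic acid, against 87.9% and 87.1% in control. It was no member: from nearly the same control level it lost 33.1 points, where the member lost 44.1 points.

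APEX1, the main endonuclease for abasic sites in DNA repair, had 43.5% and 41.5% with ascorbic acid, against 88.2% and 87.9% in control, at the only compared site of the gene (chromosome 14 position 20457353). DHX30, an RNA helicase of mitochondrial RNA granules, had 23.0% and 23.4% with ascorbic acid, against 78.5% and 81.5% in control, the largest loss among the 10 deepest members at 56.8 points. STK25, a kinase of the STRIPAK complex, had 31.8% and 30.5% with ascorbic acid, against 82.5% and 83.8% in control. In each of these genes the replicates of a group lay within 3 points of each other.

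Of the 10 deepest members, 2 were in genes of chromosome segregation and started lower. ANAPC5, a subunit of the anaphase-promoting complex, had 22.7% and 20.2% with ascorbic acid, against 64.0% and 65.4% in control. ZWINT, a kinetochore protein, had 27.2% and 25.6% with ascorbic acid, against 69.6% and 68.7% in control. The remaining deep members were in NME3, a nucleoside diphosphate kinase, SLC5A6, a vitamin transporter, ARAF, a RAF kinase, and GTF3C1, a subunit of an RNA polymerase III factor, with changes between -47.3 and -40.7 points.

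**Figure D2:**
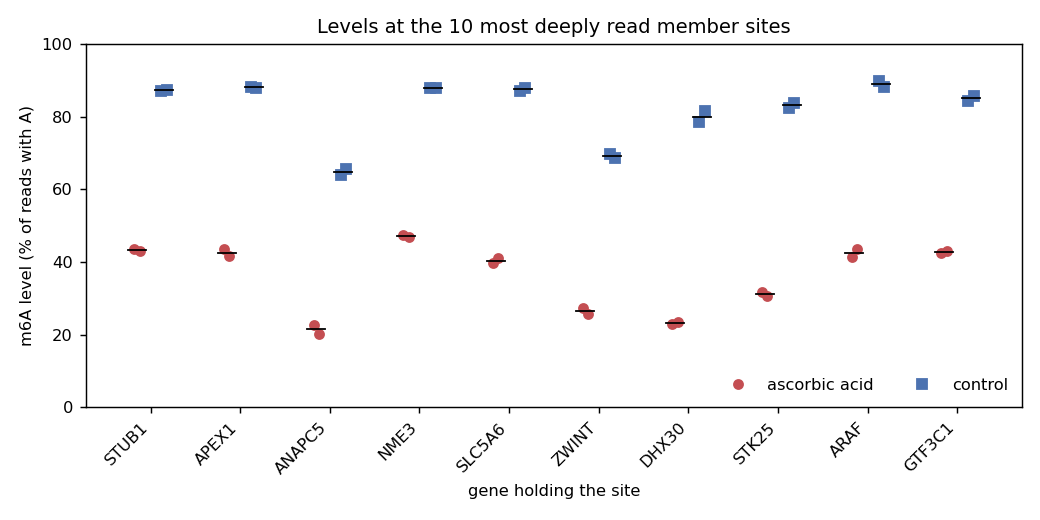
m6A level, in percent of reads with A, at the most deeply read member of each of 10 genes in the 2 ascorbic acid libraries (red circles) and the 2 control libraries (blue squares), with the mean of each group as a line. The ascorbic acid points lie between 20.2% and 47.5%, and the control points between 64.0% and 89.7%.

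The lowest levels with ascorbic acid came close to the floor of the lists. At PRKD3, a protein kinase D, the level was 11.4% and 10.0% with ascorbic acid, against 66.2% and 60.9% in control. At COL18A1, the collagen from which endostatin is cut, it was 10.1% and 12.3% with ascorbic acid, against 67.7% and 67.7% in control. TBC1D16, a regulator of Rab GTPases, had 11.5% and 11.7% with ascorbic acid, against 57.6% and 55.4% in control. At all 3 each control level lay more than 40 points above each ascorbic acid level, where the rule sets this limit for the means.

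The loss was made of fewer A reads and more G reads, with little change in their sum. Per 1000000 A plus G reads at compared sites, on edgeR's TMM scale, members held 2861 and 2809 A reads with ascorbic acid and 6203 and 6534 in control, a ratio of 0.445. They held 5505 and 5424 G reads with ascorbic acid and 1527 and 1507 in control, a ratio of 3.60. All 850 members had fewer A reads and more G reads, as a fall in level at even depth requires. At the 30874 other sites of 50% or more in control the ratios were 0.831 for A reads and 1.39 for G reads.

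**Figure D3:**
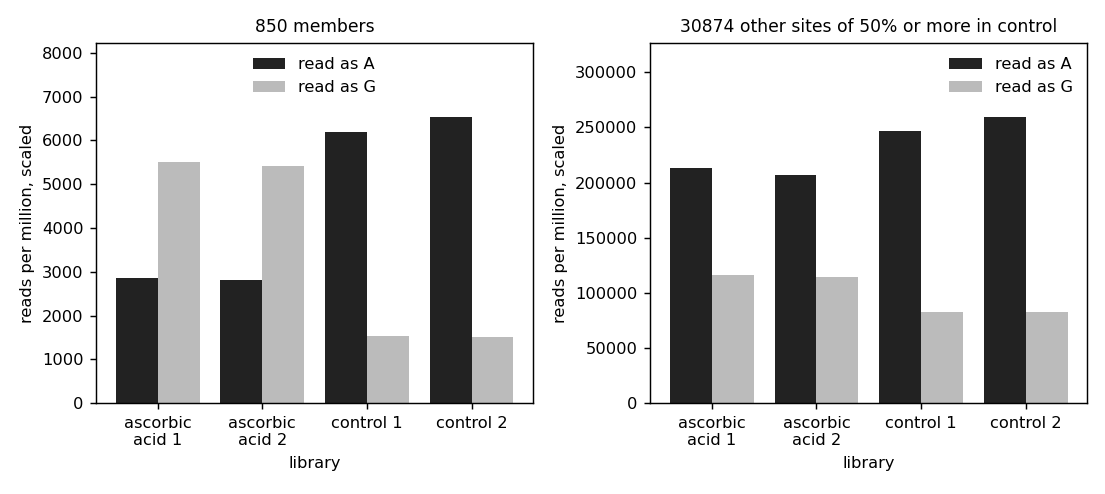
Reads carrying A (black) and G (grey) in each library, per 1000000 A plus G reads at compared sites on edgeR's TMM scale, summed over the 850 members (left) and over 30874 other sites of 50% or more in control (right). At members the order of A and G reads turns between the groups, with 2861 A and 5505 G reads in ascorbic acid replicate 1 and 6203 A and 1527 G reads in control replicate 1.

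The read depth of no member passed the adjusted threshold. edgeR's quasi-likelihood test on A plus G reads called 0 members higher and 0 lower after adjustment, as it did for 0% of all compared sites, and DESeq2 also called 0; at an unadjusted p under 0.05 edgeR called 73 members, or 8.59%, against 4.27% of all compared sites, and DESeq2 called 30, or 3.53%, against 1.18%. The median log2 ratio of depth was 0.09 at members and 0.01 over all compared sites, and 550 of 850 members had more reads with ascorbic acid. Without control replicate 1 the same test called 40 members, or 4.71%, higher and 8, or 0.941%, lower, where it called 2.25% of all compared sites higher and 2.61% lower. Set against the coverage of the whole gene with limma, 0 of 832 members were called in either direction, as were 0% of all sites tested so; 38 members, or 4.57%, had an unadjusted p under 0.05, against 2.72% of all sites tested so, and the median log2 difference was -0.01 at members and -0.02 over all sites tested.

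The members lay in 609 named genes, and 18 lay in none. Of these genes 452 held 1 member, 110 held 2 and 47 held 3 or more, while the median host gene had 9 compared sites, against 4 for genes overall. RNF213, a giant ubiquitin ligase, and PKD1, the membrane protein altered in polycystic kidney disease, held the most, 6 each. In RNF213 these lay over 55229 nt of the gene among 22 compared sites, and in PKD1 over 25161 nt among 33.

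In other genes the members crowded into a short stretch. DZIP3, a ubiquitin ligase that binds RNA, had 4 members within 191 nt of chromosome 3, about 50 kb of genome before its annotated 3′ end. Their levels were between 11.9% and 21.6% with ascorbic acid, against 56.8% to 76.8% in control. A site 108 nt from them changed by -15.0 points, and the remaining compared site, 1238 nt from the 3′ end, had 14.6% and 14.1% with ascorbic acid, against 14.6% and 16.9% in control. From its control level this remaining site could not meet the limit. That all members of this gene lay in the other stretch therefore cannot show a difference between the stretches.

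WDR59, a subunit of the GATOR2 complex that feeds amino acid signals to mTORC1, had 4 members within 267 nt. The strongest of them, at chromosome 16 position 74873807, had 11.6% and 11.2% with ascorbic acid, against 73.3% and 68.4% in control. Its neighbour 30 nt away, at position 74873777, had 42.6% and 46.7% with ascorbic acid, against 90.4% and 91.4% in control. All 4 remaining compared sites of WDR59 also had lower mean levels, with changes of -38.1 to -5.49 points, the smallest at a site with 17.2% in control.

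KIAA0100, which encodes a large lipid transfer protein, had 5 members within 818 nt of chromosome 17. Between them, 65 nt from the nearest member, lay a site at position 28635024 with 80.5% and 79.2% with ascorbic acid, against 85.3% and 85.9% in control. The member next to it, at position 28635089, had 27.4% and 31.1% with ascorbic acid, against 83.2% and 82.9% in control. Both sites had over 600 reads in every library except 566 at the member in control replicate 1, and with like control levels the mean level changed by -5.79 points at the non-member and by -53.8 points at the member.

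CASC3, a core protein of the exon junction complex, had 4 members within 500 nt with control levels of 54.2% to 87.6%. Of its 7 other compared sites, 6 were under 25% in control, and the median change of the 7 was -1.39 points. ROBO1, the receptor for the axon guidance cue Slit, had 4 members more than 340 kb before the annotated 3′ end. The site at position 78938695 had 17.2% and 12.2% with ascorbic acid, against 84.4% and 73.6% in control, and a site near the 3′ end, at position 78597736, had 50.0% and 35.9% with ascorbic acid, against 54.5% and 54.9% in control.

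In the 157 genes with at least 2 members the largest and smallest loss differed by a median of 6.62 points, a spread that the limit narrows from below. It was wider in some genes: the changes of the members ran between -64.3 and -42.7 points in ROBO1 and between -60.3 and -40.6 points in PCNT. Of the 850 members, 204 had another member within 200 nt, and neighbouring members of a gene lay a median of 201 nt apart. In 183 of 519 host genes with a further site at 50% or more in control, at least 1 such site changed by under 5 points. By sites this was 331 of 2520 in host genes, a smaller share than the 8886 of 30874 over all non-members at 50% or more in control.

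Over all non-members the median change was nearly level up to 500 nt from a member, at -12.1 points within 10 nt (76 sites), -12.2 points at 11 to 50 nt, -13.1 points at 51 to 200 nt and -12.1 points at 201 to 500 nt. It was -7.90 points at 1001 to 5000 nt, -5.98 points beyond 20000 nt in the host gene and -4.69 points in genes with no member. The size of a loss is bounded by the control level, so sites of 50% or more in control were also taken alone, a restriction added after the data were seen, and there the order was steeper. Among these the median was -28.1 points within 10 nt of a member (27 sites), -22.8 points at 51 to 200 nt (421 sites), -15.3 points at 1001 to 5000 nt (290 sites) and -10.9 points beyond 20000 nt in the host gene (838 sites). In genes with no member it was -8.52 points (25671 sites). Non-members are by the rule under 40 points of loss, close sites can lie on the same reads, and no test was made of this order.

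**Figure D4:**
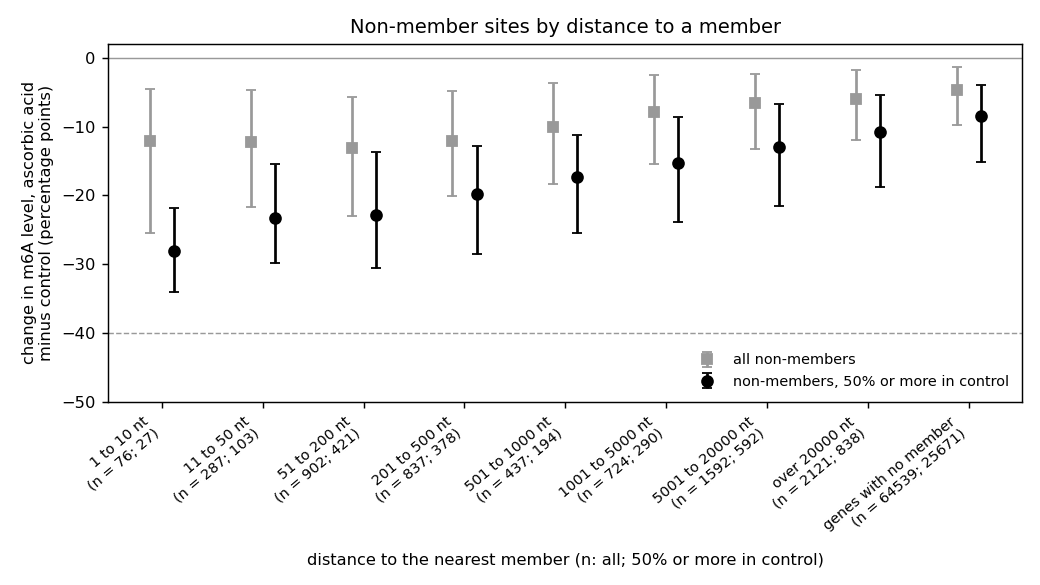
Median change in m6A level, ascorbic acid minus control in percentage points, by distance to the nearest member, of all non-member sites (grey squares) and of those of 50% or more in control (black circles); bars span the 25th to 75th percentile over sites, and the dashed line is the limit of -40 points. The grey medians lie between -13.1 and -12.1 points up to 500 nt and at -5.98 points beyond 20000 nt, and the black medians at -28.1 points within 10 nt and -10.9 points beyond 20000 nt.

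The host genes were also tested on their other sites, which the rule did not choose. With A and G reads summed over the non-member sites of a gene, edgeR's quasi-likelihood test called 512 of 591 host genes lower, or 86.6%, where 55.6% of all genes were called lower, and 0 host genes higher, where 0.297% of all genes were. The median level over these sites was 34.5% with ascorbic acid, against 46.6% in control, in host genes, and 35.6% with ascorbic acid, against 42.9% in control, in other genes. With sites more than 500 nt from every member alone, 359 of 506 host genes were called lower, where 54.4% of all genes were. Host genes have more compared sites. An alternative chosen after seeing the data took genes with at least 3 non-member sites, at any distance from a member. Among these genes 479 of 518 host genes were called lower, where 70.4% of all such genes were.

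The members lay farther from the annotated 3′ end of their genes than other strongly methylated sites. These distances are along the genome, introns included, and exon, intron and UTR were not analysed here. The median distance was 26856 nt for the 828 members with a value and 2887 nt for other sites of 50% or more in control. Beyond 5000 nt lay 71.9% of members and 34.8% of those other sites, and beyond 100000 nt 20.8% and 2.81%. The genes were longer too, with a median span of 71404 nt for members and 32481 nt for the other sites.

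In protein-coding genes the share of members among sites of 50% or more in control was 2.09% within 1000 nt of the 3′ end, 0.896% at 1000 to 5000 nt, 2.24% at 5000 to 20000 nt, 8.03% at 20000 to 100000 nt and 18.1% beyond. By control level, the share of members was 4.20% at 70 to 80%, 6.51% at 80 to 90% and 1.41% at 90 to 100%. Among sites of 70 to 90% in control the shares by distance, in the same order of classes, were 3.95%, 2.15%, 4.62%, 14.5% and 29.3%. The share was thus lowest in the class with the most sites, 1000 to 5000 nt before the 3′ end. Along the gene it was 6.84% in the fifth at the 5′ end and 1.65% in the fifth at the 3′ end.

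**Figure D5:**
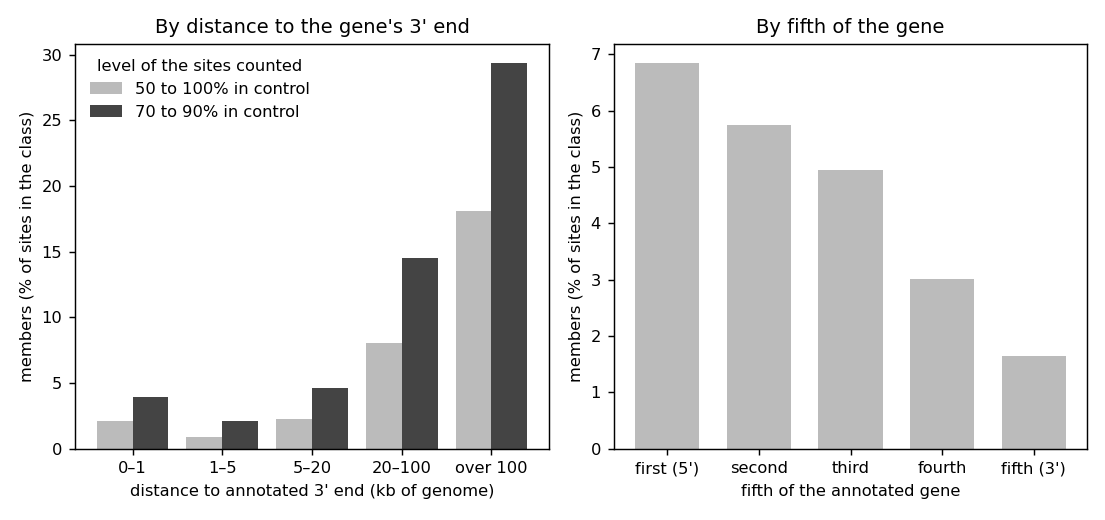
Members as a percent of compared sites in protein-coding genes, by distance to the annotated 3′ end in kb of genome (left; light bars for sites of 50% or more in control, dark bars for 70 to 90% in control) and by place along the gene in 5 equal parts (right; sites of 50% or more in control). On the left the light bars stand at 2.09% within 1 kb and 18.1% beyond 100 kb, and on the right the bars stand at 6.84% in the fifth at the 5′ end and 1.65% in the fifth at the 3′ end.

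Gene length and distance went together. Within 5000 nt of the 3′ end the share was 0.738% in genes under 10000 nt, 1.64% and 1.63% in the classes up to 30000 nt and up to 100000 nt, and 0.944% in longer genes. Beyond 5000 nt it was 0.651%, 2.62%, 4.90% and 9.82% in the same classes. Beyond 5000 nt the share was larger in each longer class, and within 5000 nt it was not. Of members with a matched gene 97.0% were in protein-coding genes, against 94.8% of other sites of 50% or more in control.

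Functional groups were described by counts from name lists, and 609 of 10782 genes with a compared site, or 5.65%, held a member. Of genes for adhesion, matrix and axon guidance 20 of 111 did, among them NTN1, the guidance cue netrin, with 35.3% and 30.7% with ascorbic acid, against 87.0% and 88.1% in control. Of centrosome and cilium genes 13 of 85 did, among them TUBGCP6, a part of the gamma-tubulin ring, with 15.8% and 18.9% with ascorbic acid, against 73.1% and 79.5% in control. PCNT, the centrosome scaffold pericentrin, had 4 members, with mean levels of 14.6% to 33.7% with ascorbic acid, against 55.2% to 78.8% in control. Both lists had a share of hosts above that of all genes, as did most of the lists, a description with no test. Of their sites at 50% or more in control 8.73% and 9.13% were members, where all named genes had 2.87%.

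Of chromatin enzymes and remodelers 25 of 168 held a member, and 3.99% of their sites at 50% or more in control were members. The site of KMT2D, a histone methyltransferase of enhancers, had 33.3% and 34.0% with ascorbic acid, against 84.0% and 86.1% in control, and the site of SUV39H1, which methylates heterochromatin, 44.2% and 40.0% with ascorbic acid, against 92.2% and 94.3% in control. Of the iron and 2-oxoglutarate dioxygenases, a family that shares cofactors with FTO, 7 of 52 held a member. KDM6A, a demethylase of histone H3, had 35.2% and 31.6% with ascorbic acid, against 83.3% and 85.7% in control. JARID2, a family member without the enzyme activity, had 35.2% and 34.5% with ascorbic acid, against 75% and 75.4% in control, 113 nt from the annotated start of the gene.

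Kinases and phosphatases of signalling held members in 37 of 308 genes. PTPRG, a receptor phosphatase, had its member 95 nt from the annotated start, with 22.4% and 15.7% with ascorbic acid, against 70.6% and 81.5% in control. Of genes of DNA replication and repair 13 of 120 held a member. CLSPN, which carries the replication checkpoint signal, had 33.0% and 26.8% with ascorbic acid, against 78.8% and 82.2% in control, and REV1, a polymerase that copies past damage, had 31.6% and 31.4% with ascorbic acid, against 79.3% and 84.5% in control.

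In motor proteins 5 of 51 genes held a member, in membrane traffic 28 of 306, in ubiquitin and SUMO genes 29 of 353, in carriers and channels 25 of 334, in mitosis and cohesin 8 of 111 and in RNA processing 14 of 235. HUWE1, a very large ubiquitin ligase, had 27.6% and 32.9% with ascorbic acid, against 84.9% and 86.0% in control. SMG6, an endonuclease of nonsense-mediated decay, had 31.9% and 34.0% with ascorbic acid, against 88.3% and 88.4% in control. ERC1, a scaffold of vesicle docking, had 12.5% and 15.6% with ascorbic acid, against 58.8% and 70.7% in control. At these 3 sites each control level lay more than 40 points above each ascorbic acid level, where the rule sets this limit for the means.

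The lists with the lowest shares of hosts were the next 3. Zinc finger transcription factors had 1548 sites of 50% or more in control and 12 members, in 10 of 349 genes, a share of 0.775% of those sites where all named genes had 2.87%. ZNF335 had 27.5% and 19.5% with ascorbic acid, against 64.9% and 75% in control. Cytosolic ribosomal protein genes had 0 hosts of 43, but they held no more than 27 sites of 50% or more in control, so 0 members is no result about them. Of 26 m6A writers, erasers and readers the demethylase FTO alone held a member, or 3.85% of the genes against 5.65% of all genes. By sites this was 1 of 125 at 50% or more in control, or 0.8%, where all named genes had 2.87%, a description with no test. The 5 other compared sites of FTO had mean control levels of 15.2% to 37.1%, so they could not lose 40 points. They changed by between -18.3 and 0.17 points.

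Gene coverage, a signal the authors deposited per gene with its unit undefined, was not used by the rule. It was taken here as the mean coverage of a gene, and only on that reading does it bear on the amount of the transcript. limma on log2 coverage called 7 of 609 host genes higher and 0 lower after adjustment, where 0.253% of all genes were called higher and 0.0422% lower. The median log2 ratio was 0.06 in host genes and -0.00 over all genes, and 448 of 609 host genes had higher coverage with ascorbic acid, a share of 73.6% against 49.6% of all genes. In these bulk libraries more cells with a transcript and more transcript per cell cannot be told apart.

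The largest of these rises, after scaling, was in SPATA20, with a coverage of 91.3 and 101.6 with ascorbic acid, against 56.5 and 56.9 in control (log2 ratio 0.75, adjusted p = 0.0207 by limma). FBXL5, the iron-sensing receptor of a ubiquitin ligase that breaks down iron regulatory protein, had 211.3 and 201.8 with ascorbic acid, against 128.3 and 127.7 in control (log2 ratio 0.69, adjusted p = 0.0174 by limma). Its stronger member had a level of 24.5% and 30.9% with ascorbic acid, against 77.6% and 88.6% in control. Coverage rose and the level of this site was lower in the same gene.

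COL6A1 and COL6A2, neighbouring genes for collagen VI chains, had log2 ratios of 0.63 (adjusted p = 0.0174 by limma) and 0.55 (adjusted p = 0.0429 by limma), and STAT6, a transcription factor of interleukin signalling, 0.51 (adjusted p = 0.0334 by limma). In COL6A1 the member at position 46004846 had a level of 32.7% and 34.4% with ascorbic acid, against 81.1% and 80.3% in control. These calls depended on single libraries: 1 host gene was called higher without ascorbic acid replicate 1, 2 without ascorbic acid replicate 2, 23 without control replicate 1 and 5 without control replicate 2, where 3, 14, 232 and 37 of all 11848 genes were called higher in the same fits. SPATA20 alone of the 5 named genes stayed past the threshold in all 10 alternatives run. The replicate number as a block gave 11 host genes higher and 1 lower (0.574% and 0.177% of all genes), and scaling to the total 11 higher (0.557% of all genes).

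Members differed in how many compared sites surrounded them. Within 200 nt the median was 2 sites, as for other sites of 50% or more in control, and 162 members had none. PCNX3, a membrane protein related to Drosophila pecanex, had 10 sites within 200 nt of its member, with 25.8% and 34.8% with ascorbic acid, against 84.7% and 83.8% in control. The member of RPS6KC1, a kinase-like protein of endosomes, lay 111203 nt from the nearest listed site, with 24.1% and 32.2% with ascorbic acid, against 74.6% and 75.2% in control. Losses of this size were found in both settings.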

How the data were processed

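GLORI libraries of HEK293T mRNA, 2 with ascorbic acid and 2 of control, came as 1 table of called sites each. Trimmomatic 0.39 and STAR, with build GRCh38 (hg38), are named per the submitters' processing notes; no source used here names the site caller. A plus G and A read counts per site are the authors' whole counts, deposited unscaled. The level (A reads over all A and G reads) and the conversion rate are fractions the authors deposited. Gene coverage is a signal the authors deposited per gene, its unit undefined. The deposited p-values, the authors' test of a site against background, were not used. Every listed site has at least 15 reads of A or G, 5 of A and a 10% level. Removal of PCR copies is not stated in the sources used here, and no genome sequence was used.

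Members and lists were chosen with earlier results of these data known. Levels were recomputed from counts. edgeR 4.0.16 (quasi-likelihood) tested A against G reads with a term per library, the same summed over non-member sites per gene, and reads per site with TMM scaling. limma 3.58.1 (trended eBayes) tested log2(gene coverage, scaled by median ratio, + 1) and site depth over gene coverage. Benjamini-Hochberg adjustment ran over all features, two-sided, at 0.05. DESeq2 1.42.0, R 4.3.3 and Python 3.11.15 were also used. The edgeR tests of A against G reads per site and of reads per site, and the limma test of gene coverage, were tried on simulated data. The remaining tests were not. Of named members, 830 of 832 matched a RefSeq gene and 828 had a position within its span. Sequences are RefSeq's, build GRCh38.p14.

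Named members are the deepest of 10 genes, the 10 genes with most members, the 5 lowest with ascorbic acid (at least 50 reads), 3 on either side of the limit, up to 4 genes per list, up to 5 genes called by coverage, and the most crowded and most isolated; members in gene-start windows and other sites of host genes were named after their values were seen. Same-numbered libraries were not paired in the labels, and their deviations correlated at -0.01 for log2 odds and -0.16 for gene coverage.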

Additional observations from a re-analysis of the deposited data

How the results depend on the processing

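The number of members followed the limits set: 553 sites with at least 50 reads, 2411 with a limit of 30 points, 209 with a limit of 50 points, and 473 when each of the 4 pairs of libraries had to meet the limit, an alternative chosen after seeing the data. Without 1 library it lay between 869 and 976, and these sets held 729 to 772 of the 850 members. The median distance to the 3′ end was 15529 nt with a limit of 30 points, 50396 nt with 50 points and 21049 nt with at least 50 reads, against 2887 nt for other sites of 50% or more in control; the cause was not tested. The site test called 553 members lower with at least 50 reads, because 553 were left, and 847 to 850 without 1 library.

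Only 2 numbers are shared between the groups, so the replicate number was no part of the main tests. With the replicate block 11 host genes were called higher and 1 lower by coverage, and with crossed numbers, added after seeing the data, 13 and 0. The replicate block left 850 members called by the site test and 514 host genes called on their other sites. Coverage scaled to the total called 11 host genes higher. Without 1 library coverage called 1 to 23 host genes higher and 0 to 3 lower, and depth 0 to 40 members higher and 0 to 8 lower, the highest counts being without control replicate 1. The other sites of host genes gave 452 to 516 calls without 1 library.

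At 73 named sites, members and sites just outside the limit, correction for the unconverted share made the loss larger at all 73, and at 13 by more than the spread between replicates. The correction takes more from a low level than from a high one, so a larger loss was likely beforehand. With the levels so corrected or without 1 library their losses lay between 31.2 and 71.3 points. The median log2 site depth over gene coverage at members, -0.01 with all libraries, turned to 0.00 without ascorbic acid replicate 2 and 0.01 without control replicate 2, with 0 calls in each. Depth limits single members, as 139 had a library with under 30 reads.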

Other observations

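Some strongly methylated control sites had no level with ascorbic acid. Of 33541 sites listed in both control libraries at 50% or more with at least 20 reads, 130 were listed in neither ascorbic acid library and 951 in 1 of them. Such sites have no level in the libraries that do not list them, so they could not be counted as members; a low depth and a low level there cannot be told apart.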
